A study of Laccaria bicolor with 20 samples.

Results

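The mycelium of Laccaria bicolor on surplus phosphate (+P) was compared with that on control medium (Control). The comparison rests on all 5 libraries of these media among the 20 libraries and 7 media of the series, 2 of +P and 3 of Control, taken by their titles and tested on the deposited raw reads. L. bicolor is an ectomycorrhizal basidiomycete that lives on the roots of trees, and all libraries came from strain S238N growing alone on agar, without a host plant. Colonies grew for 2 weeks before transfer and then for 1 week in the dark at 25 °C on fresh plates of Control or of a medium changed in nitrogen, phosphorus or carbon. Control was modified Melin-Norkrans (MMN) agar with 3.67 mM KH2PO4, 1.89 mM diammonium phosphate and 0.5% glucose. The +P medium had the same composition with a further 25 mM KH2PO4. Both also held 0.5% malt extract and 1% casein hydrolysate, which carry nutrients of their own. Since the added salt brings potassium together with phosphate, these cannot be told apart in +P. The medium with surplus glucose (+C) held 2% glucose, the one without phosphate salts (-P) had its ammonium made up, and the one without ammonium salts (-N) had its phosphate made up. The medium with reduced glucose (-C) held 0.02% glucose, and the one with surplus ammonium (+N) had a further 25 mM of an ammonium chloride salt. All media other than +P had 3 libraries each.

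Fungal cells take up phosphate with proton-coupled carriers and store what they do not use as polyphosphate, chains of phosphate kept mostly in the vacuole. Ammonium enters through transporters of the AMT family and is built into glutamate and glutamine by glutamate dehydrogenase and glutamine synthetase, while nitrate needs a transporter, a nitrate reductase and a nitrite reductase before it can follow the same route. In ectomycorrhiza the fungus passes phosphate and nitrogen to the tree and receives sugars, and many of its small secreted proteins are made at that stage.

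The +P libraries held 11.7 and 16.6 M reads, against 17.2, 14.9 and 15.3 M reads in Control. More than 5 reads were found for 13950 and 14809 gene models in +P and for 14533, 14499 and 13832 in Control. A set of 6 genes that the study names as induced in ectomycorrhiza was looked up, although no library had a host plant. Of these, JGI-620230, JGI-596686, MISSP17.8 and LbH12 had at most 5 reads in any library of +P or Control, and the chitinase JGI-674406 had 6 and 3 reads in +P and 14, 6 and 16 reads in Control. JGI-603166 was the exception, with 106 and 80 reads in +P and 141, 99 and 105 reads in Control. All 6 genes were called higher than Control in +N, also without a host, by 2.31 to 8.42 on the log2 scale. Low reads of these genes therefore do not tell free-living from mycorrhizal material. As Euclidean distance on log2 CPM (read counts per M reads after scaling), the +P libraries lay 57.25 from each other and 53.84 to 76.25 from Control libraries, while Control libraries lay 47.16 to 63.85 apart. The separation of the media was therefore no wider than the spread of replicates for some pairs. Control replicate 3 stood apart from these on the third principal component, with a score of 42.78 against 12.93 and 7.76 in the other Control libraries and 11.77 and -10.06 in +P. Single libraries of other media lay towards the same end, with 34.08 for -P replicate 1 and 24.56 for +C replicate 1.

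Surplus phosphate changed 1447 of 14725 tested genes, 9.83% of them, at an adjusted p under 0.05 in the quasi-likelihood test of edgeR (Benjamini-Hochberg over all tested genes). Of these, 623 rose, 4.23% of the tested genes, and 824 fell, 5.6%. Most of the changes were small, with a median size of 0.57 on the log2 scale among called genes. A log2 fold change beyond 2 was reached by 18 genes that rose and 17 that fell, and no gene passed a test against the 4-fold limit itself (16 had an unadjusted p under 0.05 in it). The number of calls was 702 without +P replicate 1 and 1070 without +P replicate 2, of which 630 and 857 were also called with both libraries. In bulk mycelium, fewer cells of a type and less RNA per cell cannot be told apart.

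**Figure D1:**
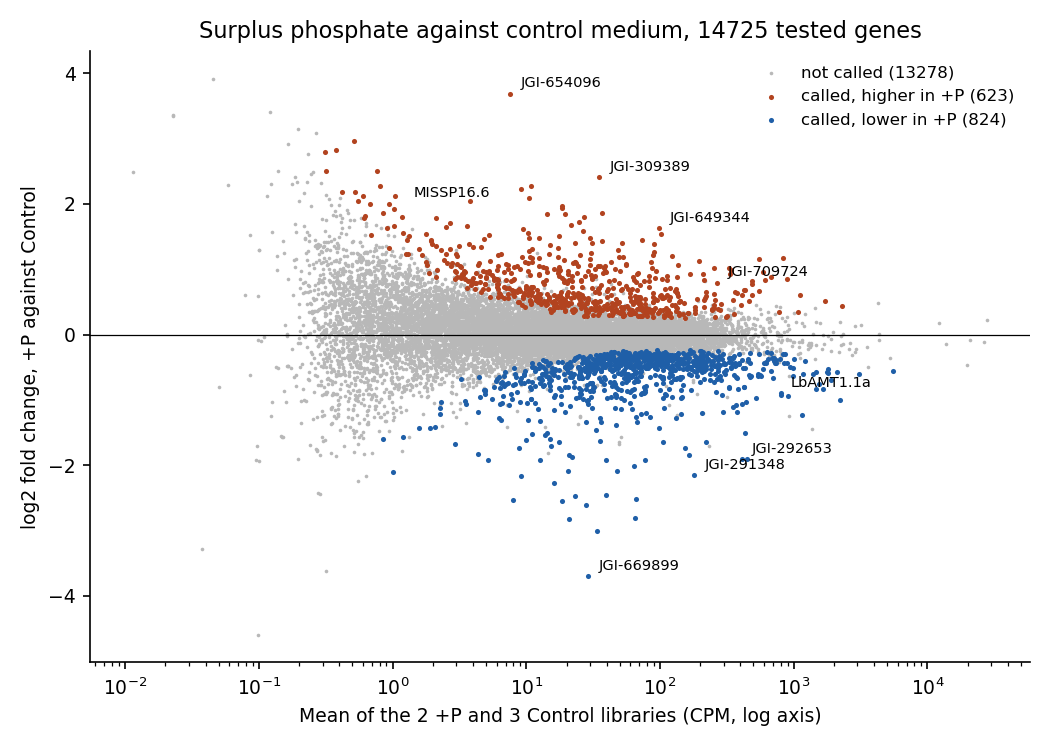
Fitted log2 fold change of +P against Control (vertical axis) for each of the 14725 tested genes against its mean in the 2 +P and 3 Control libraries (CPM, log axis). Red points are the 623 genes called higher in +P, blue points the 824 called lower and grey points the rest, and most called genes lie within 1 log2 unit of the zero line.

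Among the genes that rose with ample reads, the clearest was JGI-309389, a gene of unknown function. It had 68.6 and 68.0 CPM in +P, against 15.7, 11.5 and 11.0 CPM in Control, a log2 fold change of 2.41 ± 0.14 (SE, edgeR adjusted p = 4.7e-10). The lowest +P library was more than 4 times the highest Control library. JGI-607935, annotated only with an invasin/intimin cell-adhesion domain and listed as a small secreted protein, had 18.7 and 23.1 CPM in +P and 5.00, 4.21 and 3.68 CPM in Control (2.28 ± 0.18, adjusted p = 4.3e-08). MISSP16.6 (JGI-315282), one of the mycorrhiza-induced small secreted proteins, had 22.1 and 12.9 CPM in +P, against 4.01, 3.87 and 3.11 CPM in Control (2.23 ± 0.20, adjusted p = 3.3e-07). The +P libraries differed from each other here but neither overlapped with Control, as the rule for naming the gene required. JGI-705959, without known function, rose by 2.09 ± 0.20 (adjusted p = 6.3e-07), and the clitocypin JGI-326015, a member of a family of cysteine protease inhibitors first known from mushrooms, rose by 2.04 ± 0.30 (adjusted p = 8.5e-05).

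Among called genes, the largest fitted increase belonged to JGI-654096, annotated as a protein of the large ribosomal subunit. It had 11.4 and 22.6 CPM in +P, against 1.92, 1.20 and 0.778 CPM in Control (3.69 ± 0.53, adjusted p = 6.9e-05). JGI-634063 rested on few reads, with 16 and 14 in +P and 1, 2 and 3 in Control, a ratio of 7.96 with a 95% counting interval of 3.26 to 23.4. The 12 largest increases were completed by 5 further genes, JGI-479908, JGI-477928, JGI-315576, JGI-506524 and JGI-603646. Each of these lost its call when single libraries were left out. Without +P replicate 1 the adjusted p was 0.0928, 0.335, 0.342 and 0.0666 for JGI-479908, JGI-477928, JGI-506524 and JGI-603646, and without +P replicate 2 it was 0.345 for JGI-315576 and 0.0816 for JGI-603646. Leaving out Control replicate 1, 2 or 3 also lost calls among them, with adjusted p between 0.0515 and 0.136.

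The 12 largest decreases, taken where every Control library held 10 reads or more, were all of moderately expressed genes, and every one of them was called under each of the alternatives tried. JGI-669899, of unknown function, had 3.43 and 3.61 CPM in +P, against 43.0, 44.996 and 50.1 CPM in Control (-3.70 ± 0.37, adjusted p = 1.1e-06). The protein kinase JGI-567679 had 4.80 and 7.91 CPM in +P and 56.2, 48.4 and 53.1 CPM in Control (-3.01 ± 0.29, adjusted p = 6.1e-07). The C2H2 zinc finger protein JGI-445505, of a class that often binds DNA, had 6.52 and 7.23 CPM in +P and 47.3, 33.2 and 46.5 CPM in Control (-2.61 ± 0.31, adjusted p = 6.9e-06). For all 12 genes both +P libraries lay below all 3 Control libraries, as the rule for naming them required. The other 9 genes were JGI-691008, JGI-691026, JGI-663360, JGI-567578, JGI-688316, JGI-670757, JGI-670696, JGI-600471 and JGI-457311, none with a function in the annotation, and fell by 2.17 to 2.82 on the log2 scale.

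**Figure D2:**
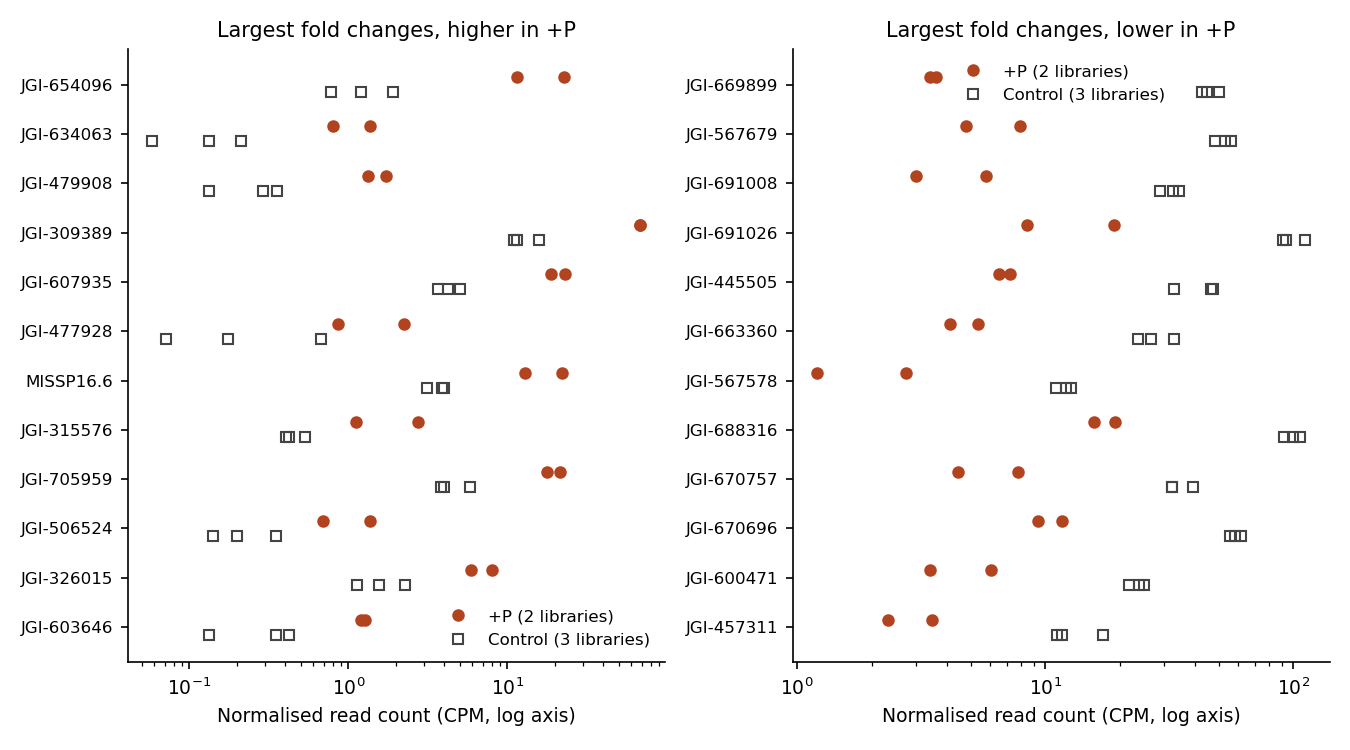
Normalised read counts (CPM, log axis) of the 12 genes with the largest increase (left) and the 12 with the largest decrease (right), 1 point per library, with filled circles for the 2 +P libraries and open squares for the 3 Control libraries. JGI-669899 had 3.43 and 3.61 CPM in +P, far below its 3 Control libraries between 43.0 and 50.1 CPM.

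A group of such genes fell together. The study placed 19 genes in 2 groups of co-expressed transcripts marked by lower expression at low ammonium and at low glucose. Of these 19 genes, 17 fell in +P and none rose, where 5.6% of all tested genes fell. The median log2 fold change was -1.87, against 0.00094 over all tested genes. Against the same Control libraries, 700 of all 14725 tested genes were called lower in +C, 2502 in -N and 0 in -P. Any list would therefore give 0 lower in -P. Of the 19 genes, 18 fell in +C (median -1.59), 19 in -N (median -2.55) and 0 in -P (median -0.57). The study chose these groups on the same libraries, so that the count is not independent evidence of their direction. They include JGI-669899, JGI-567679, JGI-691008 and JGI-445505, described above, and the CCCH zinc finger protein JGI-679946, which had 6.26 and 10.4 CPM in +P and 34.3, 26.0 and 32.7 CPM in Control (-1.87, adjusted p = 3.1e-06). JGI-665254, annotated as a transaldolase, an enzyme of the pentose phosphate pathway, had 9.44 and 11.7 CPM in +P and 23.7, 16.9 and 20.0 CPM in Control (-0.93, adjusted p = 0.0043). Its call and those of JGI-485292 and JGI-697229 were lost without +P replicate 1 (adjusted p = 0.0873, 0.0658 and 0.0526).

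Some genes of nitrogen uptake and assimilation fell in +P, which held the same ammonium salt as Control. Of the 15 tested genes annotated as enzymes of nitrogen assimilation, 6 fell and none rose (median log2 fold change -0.35, against 0.00094 over all tested genes, of which 5.6% fell). Of the 7 genes with symbols of ammonium and nitrate carriers, 2 fell and none rose. The assimilation list was drawn up after values of its members had been seen. The ammonium transporter LbAMT1.1a (JGI-188643) had 545 and 505 CPM in +P, against 890, 938 and 1108 CPM in Control (-0.90 ± 0.11, adjusted p = 1.3e-05). Its +P libraries were close to each other and well below every Control library. LbAMT1.2 had 336 and 246 CPM in +P and 348, 355 and 423 CPM in Control, and missed the threshold (-0.37, adjusted p = 0.054). LbAMT1.1b, LbAMT2.1, LbAMT2.2 and LbAMT2.3c were not called either, with log2 fold changes between -0.53 and 0.17.

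Of 4 genes annotated for nitrate or nitrite use, 3 fell in +P, where 5.6% of all tested genes fell. The nitrate transporter LbNrt (JGI-254042) had 32.6 and 26.9 CPM in +P, against 61.0, 70.9 and 63.5 CPM in Control (-1.14 ± 0.16, adjusted p = 4.2e-05). JGI-254066, a cytochrome b5 reductase annotated with nitrate reductase activity, had 43.4 and 28.7 CPM in +P and 83.6, 85.5 and 88.9 CPM in Control (-1.27 ± 0.19, adjusted p = 9.1e-05). The nitrite reductase JGI-291348 had 64.6 and 53.3 CPM in +P, against 252, 255 and 275 CPM in Control, the largest change of the group (-2.15 ± 0.24, adjusted p = 2.6e-06). In none of these 3 genes did the +P and Control libraries overlap, while both +P libraries lay below Control in 19.3% of all tested genes. A second gene with the nitrate reductase term, JGI-627887, had 120 and 112 CPM in +P and 118, 106 and 114 CPM in Control (0.04 ± 0.09, adjusted p = 0.87). No nitrate salt is listed for either medium.

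The 3 nitrate genes stand near each other in the RefSeq gene table of the V1.0 assembly, which is not the assembly the reads were aligned to. Among the genes there that match a gene model of this series, JGI-254066 is next to LbNrt, and JGI-291348 follows 4 genes further on. Unmatched genes may lie between them. The matched gene before JGI-291348, LbMnSOD3 (JGI-291347), a manganese superoxide dismutase, had 314 and 385 CPM in +P and 525, 535 and 558 CPM in Control (-0.63 ± 0.11, adjusted p = 5.6e-04). Between LbNrt and LbMnSOD3 stand JGI-332461, with 4.55 and 4.24 CPM in +P and 7.39, 8.81 and 5.52 CPM in Control (-0.73, adjusted p = 0.060), and JGI-332464, at 14.4 and 9.81 CPM in +P and 11.8, 10.5 and 12.6 CPM in Control (0.04, adjusted p = 0.95). The matched gene that follows the nitrite reductase, JGI-309678, was not called (0.24, adjusted p = 0.35). Thus 4 of these 7 genes fell and 3 were not called, where 5.6% of all tested genes fell. The stretch was chosen around the 3 nitrate genes after they had been seen to fall, with LbMnSOD3 the only further gene that fell. The count is therefore not independent evidence.

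Among the enzymes that build ammonium into amino acids, a glutamate dehydrogenase and a glutamine synthetase fell in +P, while most others were not called. JGI-292653, annotated as the glutamate dehydrogenase that uses NADP+, had 202 and 107 CPM in +P, against 462, 598 and 674 CPM in Control (-1.91 ± 0.29, adjusted p = 1.2e-04). The +P libraries differed nearly 2-fold from each other here, yet both lay below all of Control, as held for 19.3% of all tested genes. The glutamine synthetase JGI-183088 had 1481 and 1311 CPM in +P and 2067, 2104 and 2609 CPM in Control (-0.70 ± 0.12, adjusted p = 4.3e-04). A weaker decrease was seen for JGI-684579, which carries the same enzyme term (-0.35, adjusted p = 0.016), but its call was lost without +P replicate 1 (adjusted p = 0.174) and without Control replicate 3 (adjusted p = 0.100). JGI-696602, annotated as an allantoicase, an enzyme that releases nitrogen from a purine breakdown product, had 25.2 and 24.4 CPM in +P and 32.2, 38.2 and 41.6 CPM in Control (-0.59, adjusted p = 0.0037). The remaining 9 members, among them the glutamate dehydrogenase JGI-309733 (-0.53, adjusted p = 0.055), that passed the filter on low counts were not called and had log2 fold changes between -0.53 and 0.10, and 1 member, JGI-328500, had too few reads to be tested.

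**Figure D3:**
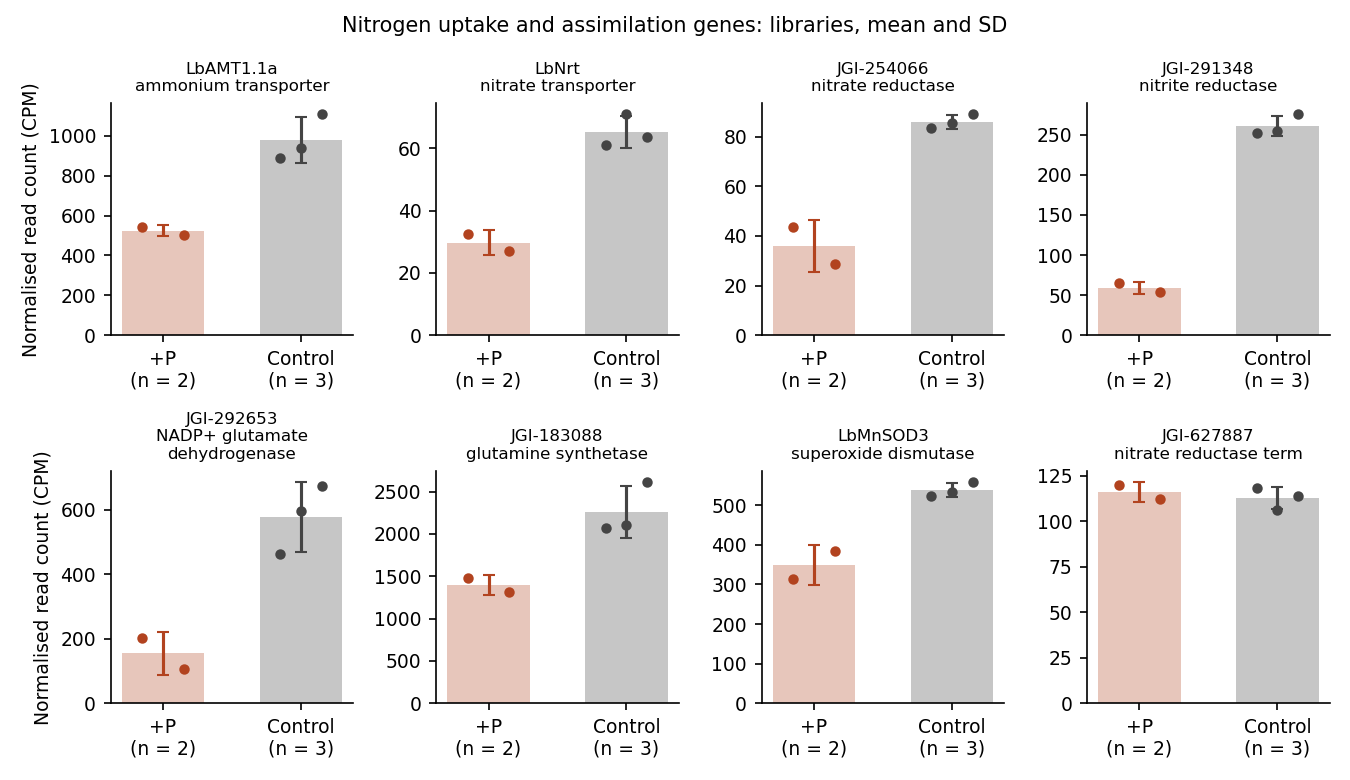
Normalised read counts (CPM, axis from 0) of 8 genes, 6 of them called genes of nitrogen uptake and assimilation, together with the neighbour LbMnSOD3 and the uncalled JGI-627887, with 1 point per library and bars for the mean with its SD, +P left (n = 2) and Control right (n = 3). The nitrite reductase JGI-291348 shows the widest gap, with 64.6 and 53.3 CPM in +P against 252 to 275 CPM in Control, while JGI-627887 lies between 106 and 120 CPM in all 5 libraries.

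Of 15 genes that handle phosphate itself, all tested, 2 rose and 1 fell (median -0.09, against 0.00094 over all tested genes). That is 20% of the list, where 9.83% of all tested genes were called. These 3 were the polyphosphate phosphatase genes that the study names (JGI-708028 is annotated for inositol polyphosphates). They were put on the list because the study had named them from these same libraries, so that the 20% is not independent evidence. None of the other 12 members was called. LbPPX1 (JGI-317181) had 32.8 and 34.8 CPM in +P, against 50.0, 51.5 and 56.7 CPM in Control (-0.64 ± 0.11, adjusted p = 6.6e-04). JGI-589527 (0.36 ± 0.10) and JGI-708028 (0.31 ± 0.09) were higher in +P, but without +P replicate 1 their adjusted p was 0.233 and 0.642. The call of JGI-589527 was also lost without Control replicate 2 (adjusted p = 0.0647), and that of JGI-708028 without Control replicate 1 (adjusted p = 0.0669) or 2 (adjusted p = 0.157). The only annotated phosphate carrier of the list, JGI-297291, had 58.6 and 36.2 CPM in +P and 51.5, 57.5 and 70.8 CPM in Control, so that the groups overlapped (-0.35 ± 0.18, adjusted p = 0.25). It was called lower without +P replicate 1 (-0.73, adjusted p = 0.0361), and +P replicate 2 was its lowest library. The annotated acid and alkaline phosphatases, enzymes that free phosphate from organic compounds, were not called. Of these, the purple acid phosphatase-like JGI-303990 had 13.04 and 14.6 CPM in +P and 12.6, 12.02 and 11.6 CPM in Control, and the histidine acid phosphatase JGI-474696 had 40.1 and 54.6 CPM in +P and 62.2, 40.5 and 47.7 CPM in Control. The alkaline phosphatase JGI-704119 had 6.78 and 7.23 CPM in +P and 6.22, 7.08 and 9.13 CPM in Control. All 12 uncalled members lay between -0.37 and 0.36 on the log2 scale. Beyond the 3 genes taken from the study, the list was drawn from a shortened annotation and is not complete.

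Of the 10 tested genes annotated for potassium or proton transport, 3 rose and 1 fell (median 0.21, where 4.23% of all tested genes rose and 5.6% fell), and another member had too few reads. JGI-709724, annotated as a sodium/hydrogen exchanger, had 413 and 306 CPM in +P, against 195, 184 and 241 CPM in Control (0.80 ± 0.13, adjusted p = 3.4e-04). JGI-191443, annotated as a proton-exporting P-type ATPase, the kind of pump that drives uptake across the plasma membrane, had 128 and 102 CPM in +P and 66.6, 53.8 and 65.0 CPM in Control (0.89 ± 0.11, adjusted p = 1.9e-05). Both genes were higher in each +P library than in each Control library, as were 16.8% of all tested genes. A second ATPase, JGI-232929, had 931 and 795 CPM in +P and 888, 826 and 1011 CPM in Control (-0.07, adjusted p = 0.75). JGI-616629, annotated for solute and proton exchange, also rose (0.56 ± 0.13, adjusted p = 0.0092), but not without +P replicate 1 (adjusted p = 0.235). The annotated potassium carrier JGI-482899 had 181 and 194 CPM in +P and 163, 161 and 170 CPM in Control and was not called (0.19, adjusted p = 0.50). The member that fell, JGI-681976, is an aldo/keto reductase that resembles a potassium channel subunit. It had 66.1 and 27.8 CPM in +P and 107, 149 and 181 CPM in Control (-1.65 ± 0.34, adjusted p = 0.0025), and an adjusted p of 0.0734 without +P replicate 2.

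Other carriers moved both ways, as did all tested genes, of which 4.23% rose and 5.6% fell. Of 31 tested carriers of ammonium, amino acids and peptides, 3 rose and 5 fell (median -0.14), with 5 higher without Control replicate 1. Fewer rose without +P replicate 1 and fewer fell without +P replicate 2, as over all tested genes. JGI-301981, a carrier of the major facilitator superfamily annotated for oligopeptide transport, had 31.5 and 25.2 CPM in +P, against 15.007, 12.2 and 11.3 CPM in Control (1.13 ± 0.18, adjusted p = 2.4e-04). The oligopeptide transporter JGI-190652 (0.84) and the amino acid carrier JGI-182249 (0.56) rose as well, though not without +P replicate 1 (adjusted p = 0.161 and 0.119). The amino acid carrier JGI-308597 had 31.5 and 29.4 CPM in +P and 53.1, 52.8 and 51.2 CPM in Control (-0.78 ± 0.14, adjusted p = 5.6e-04). LbAMT1.1a was the most lowered of the list. Of 14 tested sugar carriers, 1 rose and 1 fell (median 0.01), and neither call held without +P replicate 1 (adjusted p = 0.175 for JGI-600674 and 0.0703 for JGI-680250). Without Control replicate 2 or 3 the adjusted p was 0.0602 and 0.0858 for JGI-600674 and 0.102 and 0.128 for JGI-680250, and for JGI-680250 it was 0.228 without +P replicate 2. Of 15 carriers of zinc, copper and iron with CDF, CTR or ZIP symbols, only ZIP-D fell (-0.39, adjusted p = 0.019, with 0.197 without +P replicate 1 and 0.0694 without Control replicate 3).

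Of 249 listed small secreted proteins, 208 passed the filter on low counts, of which 21 rose and 9 fell (median 0.14), where 4.23% of all tested genes rose and 5.6% fell. The difference from other genes was not tested. Both counts were lower without +P replicate 1, as were those of all tested genes. MISSP16.6 and JGI-607935 led those with ample reads. Of the 19 tested genes with MISSP symbols, of 22, 3 rose and 1 fell. MISSP10.4 (JGI-303550) had 106 and 61.5 CPM in +P, against 42.6, 26.8 and 24.8 CPM in Control (1.40 ± 0.19, adjusted p = 4.5e-05). MISSP22.2 (0.77) and MISSP32.1 (-0.73) were called too, but not without +P replicate 1 (adjusted p = 0.155 and 0.129), +P replicate 2 (0.122 and 0.105) or Control replicate 3 (0.135 and 0.0949), nor MISSP22.2 without Control replicate 2 (0.0677). The most strongly expressed secreted protein that fell was JGI-705940, of unknown function, with 80.6 and 114 CPM in +P and 277, 288 and 346 CPM in Control (-1.64 ± 0.29, adjusted p = 7.6e-04). JGI-647986 fell by 1.67 and JGI-485570 by 1.00 on the log2 scale (adjusted p = 0.0023 and 1.6e-04).

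Of 11 clitocypins and hydrophobins tested, the clitocypins JGI-326015, JGI-382297 and JGI-318727 rose and none fell (median 0.06). Of all tested genes 4.23% rose and 5.6% fell. JGI-318727 had 12.6 and 12.1 CPM in +P and 5.29, 6.54 and 6.09 CPM in Control (1.05 ± 0.19, adjusted p = 8.2e-04), while the call of JGI-382297 was lost without +P replicate 1 or 2 (adjusted p = 0.0915 and 0.227) and without Control replicate 2 or 3 (0.128 and 0.127). The clitocypin JGI-311135 was not called (0.06, adjusted p = 0.95). Of 19 proteases with LbPR symbols, 2 rose and 2 fell. The aspartyl protease LbPR_A1 (JGI-302848) had 52.8 and 47.0 CPM in +P, against 28.4, 13.9 and 13.9 CPM in Control (1.40 ± 0.23, adjusted p = 2.4e-04). LbPR_A12 (0.83), LbPR_A4 (-0.61) and LbPR_M2 (-0.33) lost their calls without +P replicate 2 (adjusted p = 0.0954, 0.381 and 0.0949). LbPR_A12 and LbPR_A4 also lost them without +P replicate 1 (0.161 and 0.0566), Control replicate 2 (0.101 and 0.102) or Control replicate 3 (0.0616 and 0.158), and LbPR_A12 without Control replicate 1 (0.053).

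Of 136 tested carbohydrate-active enzymes, 17 rose and 7 fell (median 0.02, where 4.23% of all tested genes rose and 5.6% fell). Fewer rose without +P replicate 1 and fewer fell without +P replicate 2, as held for all tested genes. The GH79 enzyme JGI-295469, of a family of glucuronidases, had 65.6 and 84.3 CPM in +P and 52.4, 24.2 and 21.6 CPM in Control (1.19 ± 0.24, adjusted p = 0.0023, and 0.0501 without +P replicate 2). Control replicate 1 stood close to +P in this gene. The expansin-like JGI-313260, of a group of proteins that loosen cell walls, had 28.1 and 23.6 CPM in +P and 14.1, 8.55 and 11.3 CPM in Control (1.18 ± 0.23, adjusted p = 0.0019). JGI-295130, which carries a carbohydrate-binding module (CBM12), was among the abundant transcripts and had 964 and 1046 CPM in +P, against 1637, 1837 and 1895 CPM in Control (-0.83 ± 0.12, adjusted p = 5.5e-05). The GH128 enzyme JGI-379551, of a family of glucanases, had 11.2 and 13.8 CPM in +P and 21.1, 29.2 and 30.4 CPM in Control (-1.09 ± 0.18, adjusted p = 4.1e-04). The GH18 member JGI-185397 fell by 1.19, a call lost in each fit that left out 1 library (adjusted p between 0.0517 and 0.286). None of the 9 tested laccases was called in edgeR, where 3 had an unadjusted p under 0.05, nor in DESeq2, while 1 was called higher under each of 4 alternatives (no filter, the compared media alone, a replicate block and upper quartile scaling), and lcc6 came nearest with 73.3 and 75.9 CPM in +P and 52.4, 34.3 and 44.7 CPM in Control (0.77, adjusted p = 0.073).

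**Figure D4:**
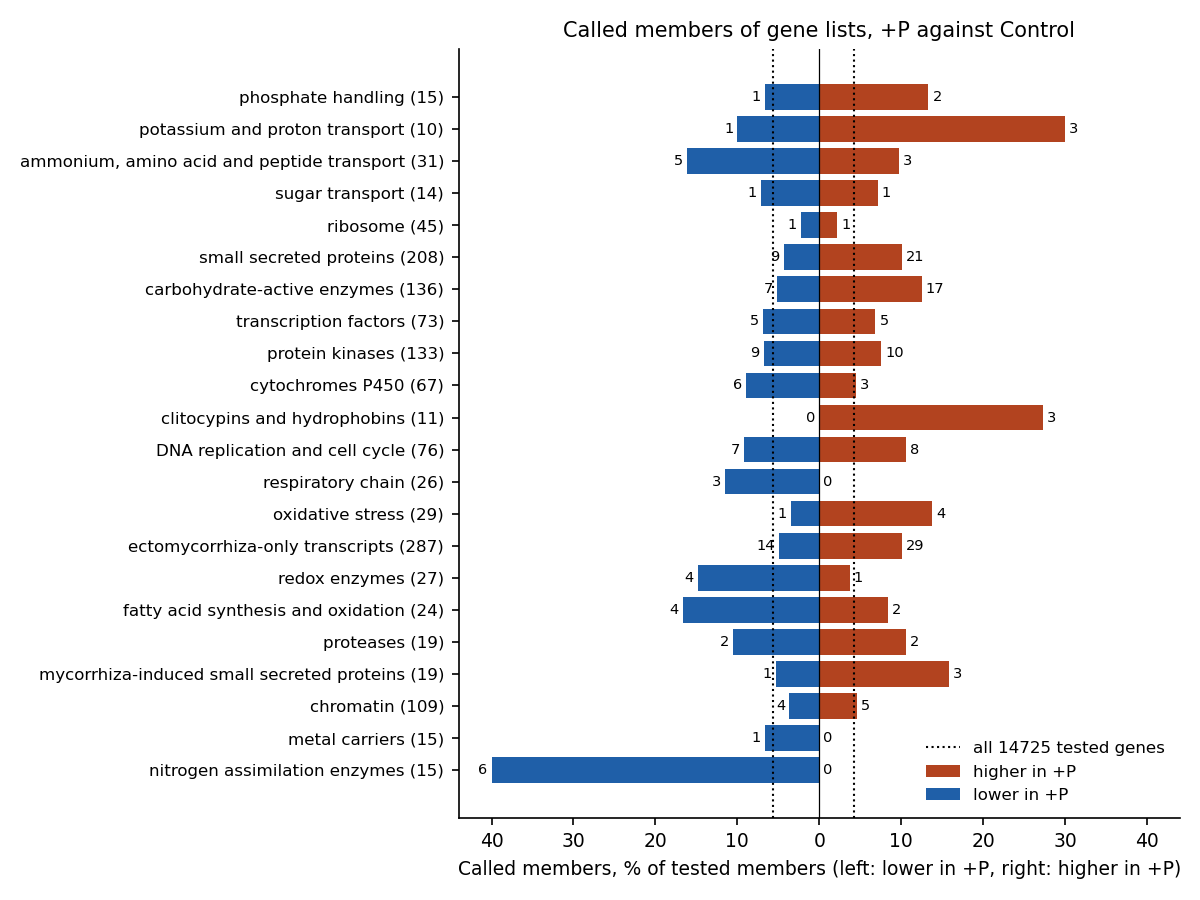
Share of tested members called in +P against Control for gene lists with at least 10 tested members (number tested in brackets), lower in +P to the left and higher to the right, with the number of called members at each bar. Dotted lines give the shares over all 14725 tested genes, 5.6% lower and 4.23% higher, and the nitrogen assimilation enzymes have 6 of 15 members lower and none higher.

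Transcripts that the study set apart as higher only in ectomycorrhiza, on libraries outside this series, were matched for 305 gene models. Of the 287 tested here, 29 rose and 14 fell (median 0.12, where 4.23% of all tested genes rose and 5.6% fell). Fewer rose without +P replicate 1, as held for all tested genes, and the shares were not compared in that fit. JGI-708196, which is annotated as a fatty acid desaturase with a cytochrome b5 domain, had 38.6 and 28.2 CPM in +P, against 10.6, 7.74 and 7.29 CPM in Control (1.94 ± 0.16, adjusted p = 9.2e-08). JGI-310516, a carrier of the major facilitator superfamily, had 5.92 and 7.40 CPM in +P and 16.2, 16.8 and 17.4 CPM in Control (-1.32 ± 0.16, adjusted p = 8.4e-06). JGI-656382, without known function, fell by a similar amount (-1.31, adjusted p = 2.4e-04), and JGI-254066, described above, is a member as well.

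Regulators changed in both directions. Of 133 tested protein kinases, 10 rose and 9 fell, and of 73 transcription factors 5 rose and 5 fell, where 4.23% of all tested genes rose and 5.6% fell. Fewer kinases and transcription factors were called without +P replicate 1, and fewer kinases fell without +P replicate 2, as held for all tested genes. Without Control replicate 1, 10 transcription factors rose. After JGI-567679 the most lowered kinase was JGI-335202, annotated as a tyrosine protein kinase, with 16.0 and 13.6 CPM in +P, against 49.8, 59.8 and 57.5 CPM in Control (-1.92 ± 0.14, adjusted p = 2.8e-08). The kinase JGI-482974 had 9.86 and 9.63 CPM in +P and 6.63, 4.87 and 6.37 CPM in Control (0.71 ± 0.14, adjusted p = 0.0023). The bZIP factor JGI-667862 had 97.5 and 75.5 CPM in +P and 54.7, 50.4 and 55.8 CPM in Control (0.69 ± 0.10, adjusted p = 9.9e-05). The C2H2 zinc finger gene JGI-699998 had 511 and 441 CPM in +P and 328, 279 and 315 CPM in Control (0.63 ± 0.12, adjusted p = 1.0e-03). The GATA-type factor JGI-585421 fell slightly (-0.37, adjusted p = 0.023), a call lost without +P replicate 1 (adjusted p = 0.0784), +P replicate 2 (0.163), Control replicate 1 (0.0709) or Control replicate 3 (0.0765).

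Of 109 tested chromatin genes with symbols, 5 rose and 4 fell, 8.26% where 9.83% of all tested genes were called. These calls did not hold without +P replicate 1, where fewer of all tested genes were called as well. Among them AGO16201, an Argonaute gene of the small RNA pathway, had 318 and 246 CPM in +P and 190, 159 and 191 CPM in Control (0.65 ± 0.13, adjusted p = 0.0020, and 0.106 without +P replicate 1). Of 76 genes of DNA replication and the cell cycle 8 rose and 7 fell. Fewer of them rose without +P replicate 1 and fewer fell without +P replicate 2, as over all tested genes. The F-box protein JGI-638339 had 79.8 and 80.7 CPM in +P, against 130, 156 and 142 CPM in Control (-0.83 ± 0.14, adjusted p = 4.8e-04). Of 45 ribosomal genes, JGI-654096 rose and JGI-675318 fell (-0.52, adjusted p = 0.040, with 0.393 without +P replicate 1 and 0.223 without Control replicate 2), and the median was -0.05.

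Of 24 tested genes of fatty acid synthesis, storage and oxidation, 4 fell and 2 rose (median -0.04, where 5.6% of all tested genes fell and 4.23% rose). The thiolases THIK-1 and THIK-5, which carry out the last step of beta-oxidation, had 307 and 278 CPM and 316 and 288 CPM in +P, against 366, 418 and 441 CPM and 387, 410 and 429 CPM in Control (-0.48 and -0.44, adjusted p = 0.0013 and 0.0022). The multifunctional enzyme MFP-1 (-0.46, adjusted p = 0.0050) and the hydroxyacyl-CoA dehydrogenase HCD-2 (-0.38, adjusted p = 0.0027) fell too, but MFP-1 not without +P replicate 2 (adjusted p = 0.104) and HCD-2 not without +P replicate 1 (adjusted p = 0.0633). ACC1, the acetyl-CoA carboxylase that opens fatty acid synthesis, had 559 and 366 CPM in +P and 329, 244 and 312 CPM in Control (0.65 ± 0.18, adjusted p = 0.023), a difference carried by +P replicate 1 (adjusted p = 0.481 without it, and 0.107 without Control replicate 2). DAGAT-4, of an acyltransferase family that makes storage lipid, rose by 0.34 (adjusted p = 0.047), a call lost without +P replicate 1 (0.215), +P replicate 2 (0.129), Control replicate 2 (0.182) or Control replicate 3 (0.166). FAS-2, a fatty acid synthase gene, had 514 and 411 CPM in +P and 362, 317 and 424 CPM in Control and was not called (0.33, adjusted p = 0.56).

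Of 27 redox enzymes with symbols, 4 fell and 1 rose (median -0.05), where 5.6% of all tested genes fell and 4.23% rose. Besides LbMnSOD3, the peroxiredoxin LbPrxQ1 had 38.0 and 44.96 CPM in +P, against 70.6, 79.5 and 74.3 CPM in Control (-0.85 ± 0.15, adjusted p = 6.7e-04). LBTR, a thioredoxin reductase by its symbol, fell too (-0.42, adjusted p = 0.0025, and 0.0545 without +P replicate 2). LbPrx1-Cys (-0.38) and LBTrx4 (0.68) were called, but not without +P replicate 2 (adjusted p = 0.336 and 0.0985), Control replicate 2 (0.0644 and 0.115) or Control replicate 3 (0.0866 and 0.100), nor LBTrx4 without +P replicate 1 (0.183). The catalase LbCAT had 445 and 318 CPM in +P and 349, 353 and 395 CPM in Control (0.06, adjusted p = 0.86). Of 29 enzymes with oxidative stress terms, a list that shares LbPrx1-Cys and other members with the redox enzymes, 4 rose and LbPrx1-Cys fell. The glutathione transferase JGI-296671, of an enzyme class that detoxifies reactive compounds, had 41.8 and 47.3 CPM in +P and 16.6, 12.95 and 14.9 CPM in Control (1.59 ± 0.26, adjusted p = 2.7e-04). The chloroperoxidase JGI-651575 had 60.0 and 40.4 CPM in +P and 31.4, 19.2 and 21.4 CPM in Control (1.05 ± 0.19, adjusted p = 6.4e-04), and the Dyp-type peroxidase JGI-392869 rose by 1.51 (adjusted p = 0.0076, and 0.0511 without +P replicate 2).

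Of 67 cytochromes P450 and related monooxygenases, 6 fell and 3 rose, where 5.6% of all tested genes fell and 4.23% rose. Fewer rose without +P replicate 1 and fewer fell without +P replicate 2, as held for all tested genes. JGI-702476 had 19.5 and 19.1 CPM in +P, against 44.4, 45.5 and 49.7 CPM in Control (-1.27 ± 0.18, adjusted p = 5.2e-05), and the flavin-containing monooxygenase JGI-478195 had 22.8 and 13.7 CPM in +P and 9.31, 7.88 and 8.84 CPM in Control (1.06 ± 0.15, adjusted p = 7.8e-05). In the respiratory chain 3 of 26 genes fell and none rose (median -0.14). The ubiquinol-cytochrome c reductase subunit JGI-625063 had 260 and 242 CPM in +P and 321, 332 and 372 CPM in Control (-0.45 ± 0.09, adjusted p = 0.0016). The ATP synthase component JGI-458855 (-0.40) lost its call without +P replicate 2 (adjusted p = 0.191) or Control replicate 3 (0.0549), and the cytochrome c oxidase component JGI-674066 (-0.37) without +P replicate 1 (0.407) or Control replicate 2 (0.0756).

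Among transcripts with a mean of at least 100 CPM over all libraries, the 6 largest increases and 6 largest decreases were taken. The decreases were JGI-291348 and JGI-292653 of nitrogen assimilation, JGI-703935, JGI-463693, JGI-702404 and JGI-681976. JGI-703935, without annotation, had 141 and 197 CPM in +P, against 694, 598 and 614 CPM in Control (-1.91 ± 0.22, adjusted p = 4.7e-06). JGI-463693 fell by 1.84 and JGI-702404 by 1.73 on the log2 scale (adjusted p = 7.1e-08 and 1.7e-06). None of the 6 genes that rose had a named function. The largest increase was that of JGI-649344, with 185 and 148 CPM in +P and 55.9, 49.1 and 56.5 CPM in Control (1.62 ± 0.12, adjusted p = 2.4e-08). The most abundant was JGI-630286, with 1327 and 1164 CPM in +P and 551, 495 and 610 CPM in Control (1.17 ± 0.17, adjusted p = 6.9e-05). JGI-697904, JGI-700765, JGI-677493 and JGI-483016 rose by 1.20 to 1.55. All 12 of these genes except JGI-681976 were called under each alternative.

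To see where +P differed from other altered media, it was tested against them directly in the same fit. Against surplus glucose (+C) no gene was called in edgeR, where 1243 of 14725 had an unadjusted p under 0.05, and 36 genes were called in DESeq2. The count depended on 1 library, as 626 genes were called when +C replicate 1 was left out. The nitrite reductase JGI-291348 had 58.9 ± 8.0 CPM in +P (SD, n = 2) and 114 ± 48.6 CPM in +C (SD, n = 3), a log2 fold change within the edgeR fit that missed the threshold (-0.95 ± 0.23, adjusted p = 0.21), and MISSP16.6 had 17.5 ± 6.53 CPM in +P and 17.04 ± 1.36 CPM in +C (0.02 ± 0.18, adjusted p = 0.99). A miss of the threshold does not show that the media act alike.

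Against the medium without phosphate salts (-P), 1419 genes were called, 9.64% of those tested, with 579 higher (3.93%) and 840 lower (5.7%) in +P. The count was 898 without +P replicate 1 and 843 without +P replicate 2. LbNrt (-0.94 ± 0.16), JGI-254066 (-1.35 ± 0.19), JGI-291348 (-2.60 ± 0.24) and LbAMT1.1a (-0.86 ± 0.11) were lower in +P than in -P, with adjusted p of 3.7e-04, 5.0e-05, 3.0e-07 and 2.2e-05. The ATPase JGI-191443 (1.01 ± 0.11, adjusted p = 3.4e-06) and the exchanger JGI-709724 (0.75 ± 0.13, adjusted p = 6.6e-04) were higher in +P than in -P. LbPPX1 was lower in +P (-0.48 ± 0.11, adjusted p = 0.0082). Against the medium without ammonium salts (-N), 1447 genes were called, 9.83% of those tested, with 797 higher (5.41%) and 650 lower (4.41%) in +P. It was 861 without +P replicate 1, 874 without +P replicate 2 and 936 without -N replicate 1. Of the 15 nitrogen assimilation enzymes 1 was higher and 1 lower in +P than in -N, and likewise of the 7 ammonium and nitrate carriers. The called assimilation genes were the arginase JGI-176615 (0.42 ± 0.10, adjusted p = 0.010) and the allantoicase JGI-696602 (-0.65 ± 0.13, adjusted p = 0.0017), and the called carriers were LbAMT2.3c (1.68 ± 0.35, adjusted p = 0.0030) and LbAMT1.2 (-0.98 ± 0.12, adjusted p = 1.4e-05). LbNrt (-0.01 ± 0.16), LbAMT1.1a (0.15 ± 0.11), JGI-292653 (0.02 ± 0.27) and JGI-183088 (0.02 ± 0.12) were not called in this comparison, with adjusted p between 0.42 and 0.98. MISSP16.6 and the desaturase JGI-708196 were both lower in +P than in -N (-2.11 ± 0.18 and -2.11 ± 0.16, adjusted p = 2.1e-07 and 3.1e-08). JGI-309389 and the exchanger JGI-709724 were higher in +P than in -N (1.13 ± 0.13 and 0.58 ± 0.13, adjusted p = 5.6e-06 and 0.0066).

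Each medium was also set against the same 3 Control libraries, so that these values share the spread of Control and are given side by side. JGI-309389 had a log2 fold change of 2.41 in +P, 2.45 in +C, -0.05 in -P and 1.28 in -N. LbAMT1.1a had -0.90 in +P, -0.83 in +C, -0.04 in -P and -1.05 in -N, and -3.21 in the medium with surplus ammonium (+N). LbNrt had -1.14 in +P, -0.998 in +C, -0.20 in -P, -1.13 in -N, -3.08 in +N and 2.08 in the medium with reduced glucose (-C). The exchanger JGI-709724 had 0.80 in +P, 0.87 in +C, 0.05 in -P and 0.22 in -N.

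**Figure D5:**
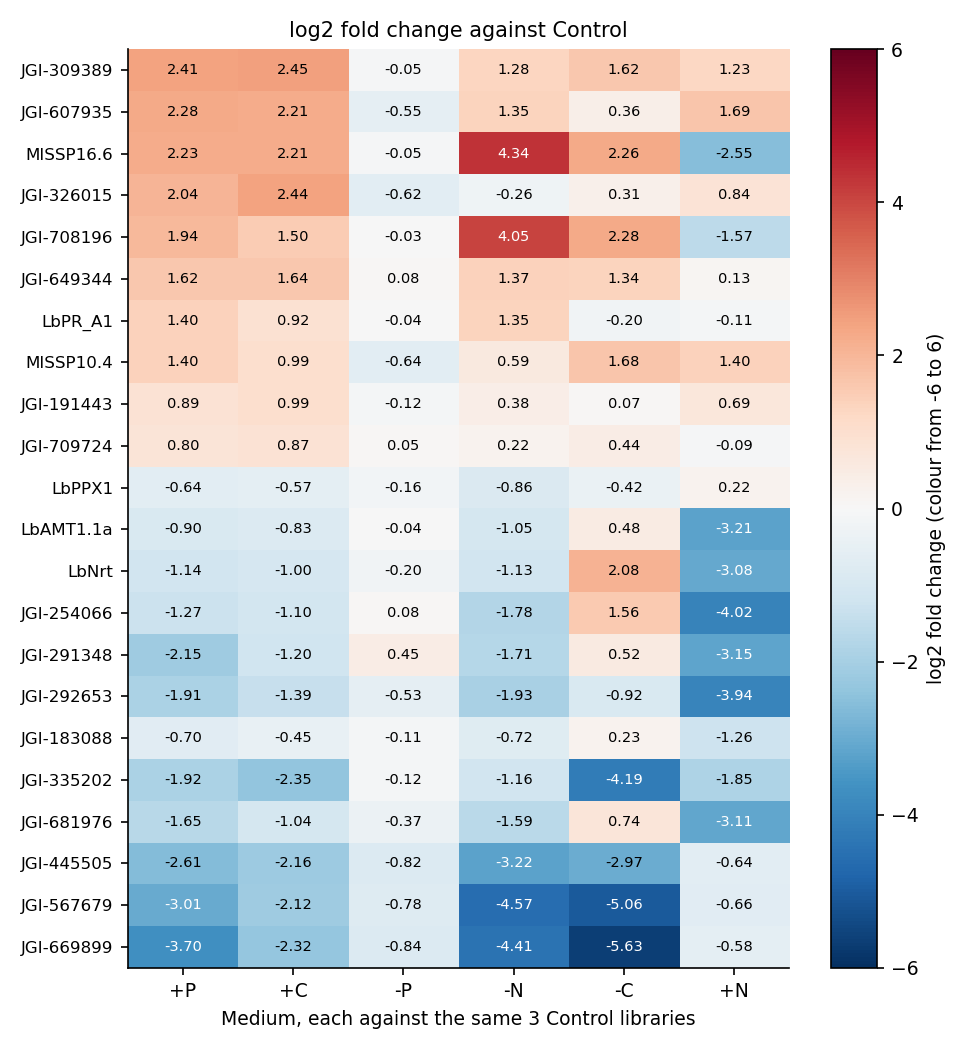
Fitted log2 fold change of each medium against the same 3 Control libraries (columns, +P first) for 22 genes described in the text (rows), with the value in each cell and red for higher and blue for lower. In -P the values lie between -0.84 and 0.45, while in +P they run from -3.70 for JGI-669899 to 2.41 for JGI-309389.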

How the data were processed

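Messenger RNA was sequenced in 20 libraries of 7 media from both ends over 150 bases. Per the methods of the study and the labels, the authors trimmed the reads, mapped these in CLC Genomics Workbench against JGI reference transcripts (v2) and deposited raw read counts and RPKM values per gene model. Whether the counts are of unique or of all mapped reads, and whether strand was used, is not given in the sources used here, so that near-identical copies and antisense neighbours are uncertain. The deposited RPKM values, reads scaled by the authors for transcript length and library size, were not used for any test.

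All 20 libraries entered 1 fit in edgeR 4.0.16 (R 4.3.3) with TMM scaling, the default filter by group (14725 of 23130 gene models kept), a mean per medium and no covariate. With 13 residual degrees of freedom the common coefficient of variation was 10.6%. P-values were adjusted by Benjamini-Hochberg within a comparison and called under 0.05. CPM are counts per M reads after TMM scaling, and standard errors were derived from the F statistic. A floor of 3 reads and exact binomial intervals cover counting error only. The labels call the replicates biological but do not say whether they came from separate plates, so that p-values measure the spread between these libraries. No pair of libraries of a medium was identical (chi-square per degree of freedom 1.97 to 28.5).

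Gene models carry JGI protein numbers. 351 took a symbol from RefSeq through 6580 matching locus tags, and 3981 had annotation words in shortened supplementary tables, from which most of the 27 lists were drawn by word rules. Of the rest, 9 are families of RefSeq symbols and 3 are lists of the study. The lists for nitrogen assimilation and the symbol families were added after values had been seen. Members and lists were chosen with earlier results of these data known. Genes were named by a rule: the 12 largest changes in each direction where all libraries of the group with more reads held 10 or more, without overlap between +P and Control, all phosphate genes, up to 3 called genes per list and direction, and up to 6 per direction with at least 100 CPM. Other genes named were chosen after their values were seen. Alternatives were RLE and upper quartile scaling, DESeq2 1.42.0, other filters, a fit of the compared media alone, leaving out each library, and a replicate block.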

Additional observations from a re-analysis of the deposited data

How the results depend on the processing

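With 2 +P libraries, single libraries set many calls. Of 61 counts of calls over the alternatives, 47 stayed within 1.5 times the value reported. For +P against Control, where 1447 genes were called, the count was 964 when the compared media were fitted alone and 702 to 1334 when 1 library was left out, the lowest without +P replicate 1. Upper quartile scaling turned the split to 877 higher and 693 lower and moved the median of all genes to 0.05, while RLE scaling gave 658 and 776. The 35 genes beyond 4-fold became 19 with at least 10 reads in each library and 0 when the limit was tested within the model, and were 27 to 52 with 1 library left out. For +P against +C, where no gene was called, DESeq2 called 36, no filter 18, and leaving out 1 library 0 to 626, the highest without +C replicate 1 and 7 without +P replicate 2. For +P against -P (1419 genes) the compared media alone gave 562 and leaving out 1 library 843 to 1465, with 898 without +P replicate 1. Upper quartile scaling split these into 812 higher and 693 lower. For +P against -N (1447 genes) leaving out 1 library gave 861 to 1112, with 874 without +P replicate 2 and 936 without -N replicate 1. Of 133 called genes examined singly, 73 were called under every alternative that gave them an adjusted p. The other 60 lost the call under at least 1, many of them without +P replicate 1 or +P replicate 2, and none changed direction. In 18 cases a gene had no adjusted p under an alternative, as with JGI-654096, JGI-634063 and MISSP16.6.

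Replicate numbers are shared between media, but libraries of the same number did not deviate together (correlation of deviations -0.378 to 0.301, median -0.0175, over 0.1 in 12 of 57 pairs). The numbers therefore do not pair the libraries. Between different numbers the correlation was -0.358 to 0.46 (median 0.034, over 0.1 in 30 of 114 pairs). Control replicate 3 had 0.453 with +N replicate 2, 0.424 with +C replicate 1, 0.346 with +P replicate 1 and -0.346 with +P replicate 2. Since +P has only 2 libraries, their deviations from the mean mirror each other. The values with these 2 libraries, also counted among the pairs above, are therefore not separate observations. A source of such shared deviations was not tested. With the replicate number as a block 1224 genes were called in +P against Control.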
